A study of Mus musculus with 672 samples.

Results

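Cells with 10 or more Mki67 reads made up 185 of the 561 mouse bone marrow progenitors that passed the cell filters, and they are described here as Mki67-high cells. They were chosen by the raw Mki67 read count alone, over all columns of the deposited table, and the other 376 kept cells, with under 10 Mki67 reads, are called Mki67-low. Single-cell transcriptomes of 672 progenitors had been collected from the bone marrow of 4 mice on a mixed C57BL6/129Ola background, aged 7 weeks. Mice 18218 and 18220 carried floxed Mbd3 alleles (Mbd3 flox/flox) and served as controls, and mice 18217 and 18219 carried deleted alleles (Mbd3 Del/Del) and are called null. The Cre driver, and whether it acted in other cells of the animals, are not stated in the labels. Each mouse gave lymphoid-primed multipotent progenitors (LMPP), all-lymphoid progenitors (ALP) and B cell-biased lymphoid progenitors (BLP). The sort gate common to the populations was negative for lineage markers and B220, positive for Sca-1 and c-Kit and high for Flt3. IL-7Ra was absent on LMPP and present on ALP and BLP, and Ly6D was present on BLP only. The mouse is the replicate, with 2 mice per genotype.

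Mki67 encodes Ki-67, a protein of the nucleolus and of the surface of mitotic chromosomes that is made by cycling cells and lost from resting ones. Its transcript accumulates from S phase to mitosis together with those of Top2a, the topoisomerase that untangles replicated DNA, and Birc5 (survivin), a subunit of the chromosomal passenger complex. Many genes of this late programme carry CCAAT boxes and a cell cycle homology region (CHR) close to their start, where the MuvB core represses them in resting cells, as part of the DREAM complex, and activates them in G2 together with B-Myb and FoxM1. Genes of DNA replication are switched earlier, through E2F sites. In lymphoid progenitors, rounds of division alternate with phases in which antigen receptor genes are cut and joined, and the Rag2 subunit of the recombinase is degraded when cells enter S phase.

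Promoter sequences of the gene used for the choice (Mki67), of both further marker genes and of Aspm, a spindle gene called in all 3 populations below, are shown because the genes moved together. Each is the 250 bases before the RefSeq transcription start (build GRCm38.p6), printed 5′ to 3′ on the gene's own strand. Capitals mark every match to the CHR (TTTGAA), its variant (TTCGAA) or the CCAAT box (CCAAT) on either strand. The windows are chr7:135716380-135716629 (minus strand) for Mki67, chr11:99024190-99024439 (minus strand) for Top2a, chr11:117848987-117849236 (plus strand) for Birc5 and chr1:139454523-139454772 (plus strand) for Aspm.
Mki67: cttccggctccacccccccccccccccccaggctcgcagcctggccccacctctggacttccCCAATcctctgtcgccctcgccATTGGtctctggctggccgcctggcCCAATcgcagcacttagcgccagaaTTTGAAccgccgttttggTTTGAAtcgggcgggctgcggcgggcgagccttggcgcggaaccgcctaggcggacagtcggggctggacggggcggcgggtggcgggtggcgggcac
Top2a: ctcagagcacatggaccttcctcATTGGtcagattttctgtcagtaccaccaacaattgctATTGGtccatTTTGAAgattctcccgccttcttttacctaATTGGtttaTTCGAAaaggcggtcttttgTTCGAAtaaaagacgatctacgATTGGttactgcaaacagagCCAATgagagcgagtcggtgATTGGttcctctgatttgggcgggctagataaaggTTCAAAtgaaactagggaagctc
Birc5: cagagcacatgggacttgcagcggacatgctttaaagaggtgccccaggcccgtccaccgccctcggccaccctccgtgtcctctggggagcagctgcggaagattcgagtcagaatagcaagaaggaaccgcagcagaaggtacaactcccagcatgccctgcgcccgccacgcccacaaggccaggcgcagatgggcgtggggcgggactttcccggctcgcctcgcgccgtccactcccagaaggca
Aspm: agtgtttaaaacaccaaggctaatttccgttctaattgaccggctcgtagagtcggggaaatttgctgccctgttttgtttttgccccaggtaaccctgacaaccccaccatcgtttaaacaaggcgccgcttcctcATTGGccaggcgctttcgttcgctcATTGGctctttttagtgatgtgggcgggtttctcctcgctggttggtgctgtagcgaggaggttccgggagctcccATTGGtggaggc
The Mki67 window held 2 CHR and 3 CCAAT matches, with the CHR matches beginning 116 and 98 bases before the start. The Top2a window held 2 CHR, 2 variant and 6 CCAAT matches. The Aspm window held 3 CCAAT matches, and these letters were not in the Birc5 window.

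The same search was run on the promoters of the mitotic genes analysed below, of which 56 of 67 had an entry, with 61 promoters. A CHR match lay in 27.9% of them, against 10.9% of the 11500 promoters of all genes tested and 16.0% of all 32851 promoters of the table. A CCAAT match lay in 72.1%, against 35.7% and 33.8%. Among the 33 promoters found for 28 of 34 S phase genes, 5 (15.2%) held the E2F site TTTGGCG and 4 (12.1%) held TTTCCCGC. Of the promoters of all genes tested, 2.13% and 1.82% held them. The S phase promoters also held a CCAAT match in 54.5% and a CHR match in 9.09%. No match to either E2F site lay in the windows of Pcna, Dut or Lig1, S phase genes named below. A match describes these letters in this window and is not a binding site. Both strands were searched, and a promoter with matches to several motifs was counted under each.

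The 561 kept cells had a median of 1431484 nuclear gene counts (58286 to 12925945). Filtering left out 111 cells, 86 of them ALPs of mice 18219 and 18220, and 3 of the 111 had 10 or more Mki67 reads, all ALPs of mice 18217 and 18218. The counts come from a full-length protocol without molecular identifiers, so a read is not a molecule, and each interval on a share covers counting error alone. The targeted gene, Mbd3 (chromosome 10, 80392539 to 80399550), a subunit of the NuRD chromatin complex, had 10 or more reads in 56 of 82 control and 2 of 103 null Mki67-high cells. The labels do not say which exons the deletion removes, and a read from a retained exon does not test it.

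By construction Mki67 reads ran from 10 to 5897 in the Mki67-high cells, with a median of 492 and quartiles of 101 and 1238, and from 0 to 9 in the others, with a median of 2. Of all kept cells 74 had no Mki67 read, 100 had 1, 142 had 2 to 4 and 60 had 5 to 9. Above the threshold 19 cells had 10 to 19 reads, 16 had 20 to 49, 11 had 50 to 99, 83 had from 100 to under 1000 and 56 had 1000 or more. Most Mki67-high cells thus had 100 reads or more. Summed by mouse and population, Mki67 (chromosome 7, 135689784 to 135716361) lay at 140.3 to 779 CPM (counts per 1000000 gene counts, scaled by edgeR) in Mki67-high and 0.485 to 2.64 in Mki67-low cells, a gap that the choice itself makes. The 12 cells just below it, with 8 or 9 Mki67 reads, had 1 to 119 Top2a reads and 0 to 4 Birc5 reads. The 10 cells just above it, with 10 or 11 Mki67 reads, had 3 to 419 Top2a reads and 0 to 454 Birc5 reads, and 1 BLP of null mouse 18219 held the 454.

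**Figure D1:**
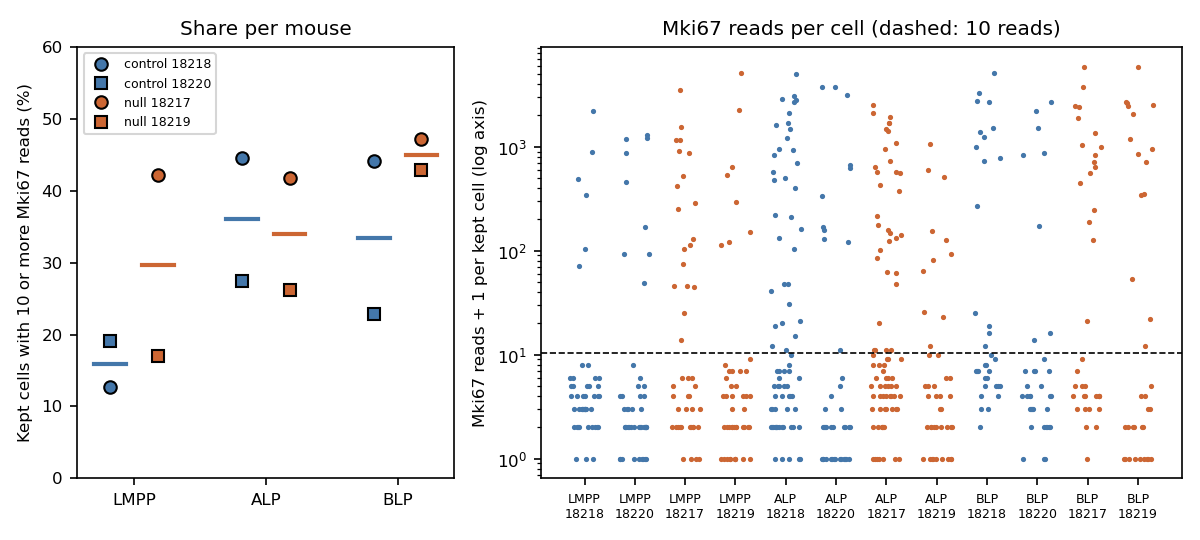
Left, share of kept cells with 10 or more Mki67 reads (percent) for each of the 4 mice in the 3 populations, with bars at the mean of the 2 mice of a genotype. Right, Mki67 reads + 1 in each kept cell on a log axis, by population and mouse, with a dashed line at the threshold; the shares run from 12.8% to 47.2%, and mice of the same genotype lie far apart among null LMPPs, all ALPs and control BLPs.

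Among LMPPs, the Mki67-high share was 12.8% and 19.1% in the control mice 18218 and 18220, and 42.2% and 17.0% in the null mice 18217 and 18219. Mouse 18217 stood above the other 3, and the genotypes overlapped. Among ALPs, the share was 44.6% and 27.5% in the same control mice and 41.8% and 26.2% in the same null mice, so the spread within a genotype was larger than the difference between genotypes. Among BLPs, it was 44.1% and 22.9% in controls and 47.2% and 42.9% in null mice, and again the groups overlapped. Over all mice, 22.6% of LMPPs (42 of 186), 37.4% of ALPs (88 of 235) and 39.3% of BLPs (55 of 140) were Mki67-high. The 95% Wilson intervals were 17.2% to 29.1%, 31.5% to 43.8% and 31.6% to 47.6%. They pool the cells of all mice and cover counting error alone, not the spread over mice. In mouse 18217 the LMPP share (42.2%) was not below the ALP share (41.8%), while in the other mice it was. A difference in share between populations was not tested.

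Null minus control, the mean share differed by 13.7 percentage points in LMPP (29.6% ± 17.8 against 16.0% ± 4.51, SD, n = 2 mice each), by -2.07 in ALP (34.0% ± 11.0 against 36.0% ± 12.1) and by 11.6 in BLP (45.0% ± 3.09 against 33.5% ± 15.0). Permuting the mice exhaustively (exact permutation, two-sided) gave p = 0.667 in each population, and with 2 mice against 2 it cannot go below 0.33. A fixed read count is reached more easily in a deeper cell, and among Mki67-low cells the median nuclear count per cell was 1485258 to 2313202 in the 6 control libraries and 829331 to 1190678 in the 6 null ones. The share was therefore also taken after thinning each kept cell to 50000 nuclear gene counts and asking for 1 or more Mki67 reads. The mean share was then 33.9% ± 11.8 in null and 21.3% ± 3.01 in control LMPPs (exact permutation p = 0.333, the smallest possible, SD, n = 2 mice each), and the genotypes no longer overlapped. That was 1 random draw of the thinning, and in it the gap between the nearest mice was 1 cell. In null mouse 18219, 12 of 47 LMPPs qualified (25.5%), and in control mouse 18220, 11 of 47 (23.4%). Null mouse 18217 had 42.2% and control mouse 18218 had 19.1%. The share expected over all draws, a measure chosen after seeing the data, was 44.8% and 27.8% in null mice 18217 and 18219. It was 20.3% and 20.9% in control mice 18218 and 18220, also without overlap (exact permutation p = 0.333). By the 10-read threshold, the LMPP difference was 1.06 points without mouse 18217. In BLPs the mean share in the 1 draw was 43.6% ± 5.11 in null and 30.5% ± 10.9 in control mice, also without overlap. With the share expected over all draws, however, the BLPs of control mouse 18218 (44.2%) again lay above those of null mouse 18219 (41.4%). In ALPs the mean share in the 1 draw was 40.3% ± 20.0 in null and 39.9% ± 10.5 in control mice. With 1 or more reads and no thinning, a mean of 79.1% to 95.7% of cells qualified and the LMPP and BLP differences turned to -2.32 and -9.96 points.

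The label was checked on both markers that the choice did not use. At least 10 Top2a reads were found in 156 of 185 Mki67-high cells (84.3%) and in 148 of 376 Mki67-low cells (39.4%). At least 10 Birc5 reads were found in 104 (56.2%) and in 11 (2.93%). Birc5 thus separated the classes far more than Top2a did, and 24 Mki67-high cells (13.0%) had neither marker at this count, among them 12 of 42 LMPPs and 2 of 55 BLPs. Thinned to equal depth, 83.2% of Mki67-high and 44.7% of Mki67-low cells kept a Top2a read, and 55.7% and 6.38% kept a Birc5 read.

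Counts of the cells were summed into 24 libraries, 1 per mouse, population and Mki67 class, and compared with edgeR's quasi-likelihood test within each mouse and population. Levels in CPM are not corrected for transcript length. Top2a (chromosome 11, 98992943 to 99024189) ran from 72.8 CPM in the Mki67-high LMPPs of mouse 18219 to 1079 CPM in the BLPs of mouse 18217, with a median of 606 over 12 libraries, against 21.4 to 138 CPM and a median of 72.6 in Mki67-low libraries. It was higher in the Mki67-high cells of all 12 pairs, although the lowest Mki67-high library lay within the Mki67-low range. Its log2 fold change was 3.11 ± 0.33 (approximate SE, adjusted p = 0.000106). Birc5 (chromosome 11, 117849251 to 117855743) ran from 100.5 to 272 CPM, median 167, against 0.458 to 54.0 CPM, median 1.41. The classes did not overlap for Birc5, and the log2 fold change was 6.51 ± 0.62 (adjusted p = 6.18e-05). The 54.0 CPM came from the Mki67-low LMPPs of null mouse 18217, and every other Mki67-low library lay at or below 9.11 CPM.

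RNA content was read from the ERCC spike-ins, synthetic RNAs added to each cell in equal amount, as nuclear gene counts per spike-in count. The library median ranged from 5.91 to 14.5 in Mki67-high cells and from 5.18 to 12.1 in Mki67-low cells, and it was higher in Mki67-high cells in 12 of 12 mouse-by-population pairs. Per mouse, the mean log2 difference was 0.49 in 18217, 0.46 in 18218, 0.40 in 18219 and 0.23 in 18220. All 4 mice moved the same way, by a mean of 0.39 ± 0.12 (SD, n = 4), and the two-sided exact sign-flip permutation test gave p = 0.13, the smallest that 4 mice allow. The ratio holds the nuclear counts, which the choice by raw reads partly fixes, so this test is partly drawn from what the choice used. With classes set by 1 or more Mki67 reads at equal depth, the mean log2 difference was 0.29 (exact sign-flip p = 0.13). Genes detected per cell at equal depth were also higher in 12 of 12 pairs, 4088 to 5562 against 3877 to 4747 (log2 difference 0.17 ± 0.07, SD, n = 4, exact sign-flip p = 0.13). Median nuclear counts, which the choice by raw reads partly fixes, were higher in 10 of 12 pairs, the exceptions being the ALPs and BLPs of control mouse 18220. Spike-in counts were higher in 4 of 12 pairs and the mitochondrial share in 6 of 12, so neither moved in one direction.

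**Figure D2:**
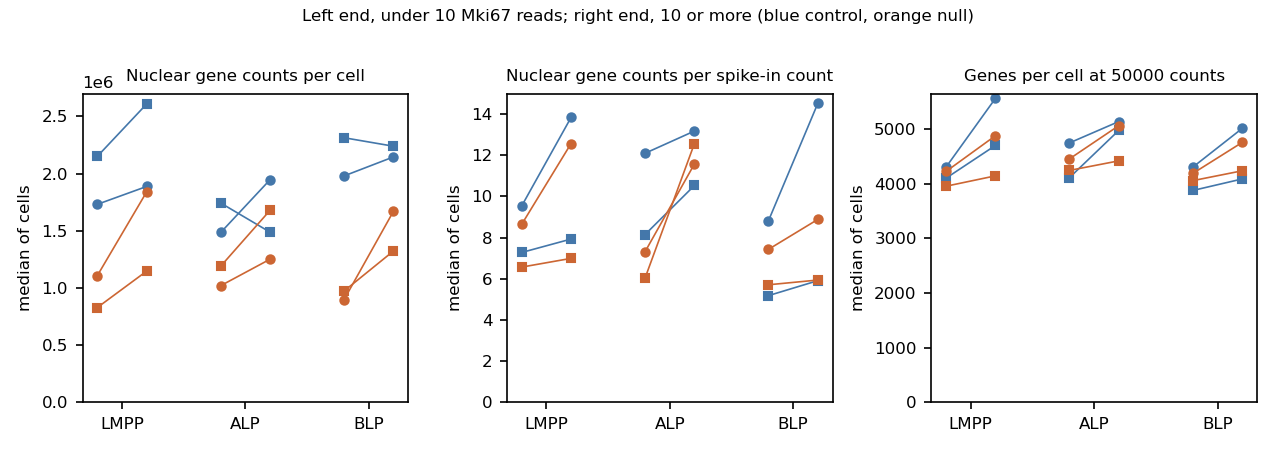
Median per cell of nuclear gene counts, of nuclear gene counts per spike-in count and of genes detected at 50000 counts, each joined from Mki67-low (left end) to Mki67-high cells (right end) of 1 mouse and population. Blue is control and orange is null, circles are mice 18218 and 18217 and squares are 18220 and 18219; all 12 lines rise in the middle and right panels, and 10 of 12 rise in the left panel.

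Over all populations, 322 of 13774 genes tested besides Mki67 (2.34%) differed between Mki67-high and Mki67-low cells at an adjusted p under 0.05 (edgeR, Benjamini-Hochberg). Of these, 281 (2.04% of the genes tested) were higher and 41 (0.298%) lower in Mki67-high cells. This fit takes the spread over the 12 mouse-by-population pairs, so the 3 populations of a mouse count as independent. With the mouse as the replicate, that is 1 pair of sums per mouse, 58 of 17594 genes were called, 57 higher and 1 lower. DESeq2 called 685 higher and 759 lower, so the excess of higher calls was not found with that tool. The median log2 fold change was 1.83 among the higher and -0.78 among the lower genes, against -0.11 over all genes tested. Nearly all, 321 of 322, had the same direction in each of the 4 mice, and 182 had it in each of the 12 pairs. Among all genes tested, 11.2% were higher in all 4 mice and 13.4% were lower in all 4. The gene lists used here held 114 of the 281 higher genes and 0 of the 41 lower genes. Leaving out a mouse cut the number of calls to 165 without 18217, 143 without 18218, 180 without 18219 and 188 without 18220, and leaving out the ALPs of mice 18219 and 18220, from which 86 cells had failed the filters, gave 206.

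**Figure D3:**
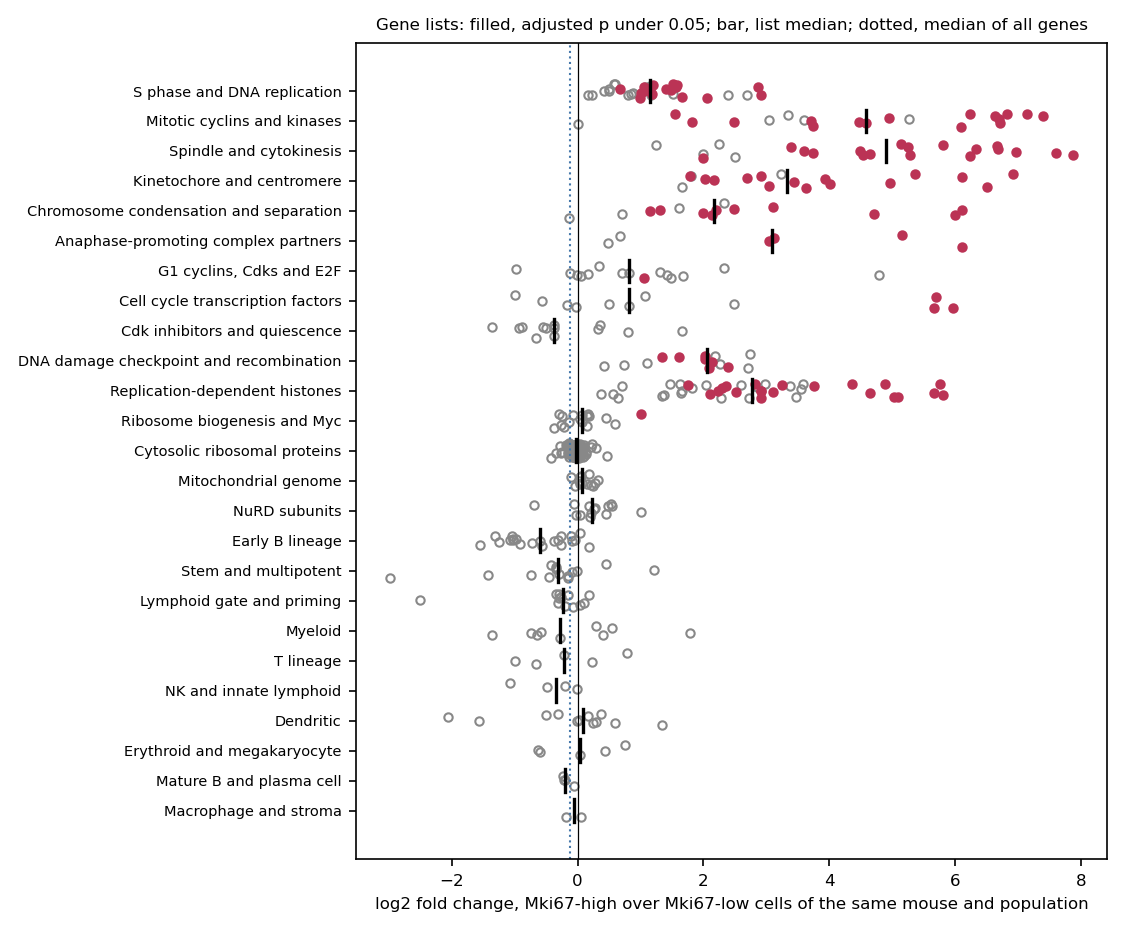
log2 fold change of Mki67-high over Mki67-low cells of the same mouse and population for each gene of the 25 lists. Filled points have an adjusted p under 0.05, bars are list medians and the dotted line is the median of all genes (-0.11); the lists of mitosis lie furthest to the right, replication, histones and DNA repair follow, and the lineage lists lie near the line.

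The 67 genes of 4 mitotic lists (cyclins and kinases, spindle, kinetochore, anaphase-promoting complex) had the largest list medians, and 53 of the 67 were called higher, none lower (median log2 fold change 4.02). Of the 67, 65 were higher in all 4 mice. Among mitotic cyclins and kinases, 16 of 21 were called (median 4.58). Ccna2, cyclin A2, which drives S phase and entry into mitosis, ran from 100.8 to 464 CPM (median 235) in Mki67-high libraries and from 0.186 to 58.3 CPM (median 1.31) in Mki67-low ones, without overlap, and its log2 fold change was 6.83 ± 0.73 (adjusted p = 0.000124). Cyclin B2 (Ccnb2) rose by 6.70 ± 0.86, the centrosomal kinase Nek2 by 7.14 ± 0.94, the checkpoint kinase Ttk by 6.63 ± 0.76 and the chromosomal passenger kinase Aurkb by 4.58 ± 0.53 on the log2 scale. The Cdk subunit Cks1b moved least of those named, from 100.1 ± 21.3 to 289 ± 28.4 CPM (mean and SD over 4 mice), a log2 fold change of 1.55 ± 0.16.

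Spindle and cytokinesis genes were called in 18 of 22 cases (median 4.90). Aspm (chromosome 1, 139454772 to 139494091), a spindle pole protein, was nearly absent from Mki67-low libraries, at 0.0677 to 1.05 CPM (median 0.225), and lay at 15.5 to 119.9 CPM (median 53.6) in Mki67-high ones. The ranges lay far apart, and the log2 fold change was 7.60 ± 0.47 (adjusted p = 1.14e-06). The chromokinesin Kif22, which moves chromosome arms, rose by 3.74 ± 0.28, the microtubule-bundling protein Nusap1 by 5.80 ± 0.44 and the microtubule depolymerase Kif2c by 7.87 ± 0.58. The chromokinesin Kif4 rose by 6.98 ± 1.27 (adjusted p = 0.00711). These genes kept their direction in every mouse, and Kif4 alone among them failed in 1 of the 12 pairs.

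In the kinetochore and centromere list 15 of 18 genes were called (median 3.34). The Ndc80 complex subunits Nuf2 and Spc24, which hold microtubules at the kinetochore, rose by 6.92 ± 0.58 and 3.62 ± 0.35. Cdca8 (borealin), the passenger complex partner of Birc5, rose by 6.11 ± 0.71. For Cenpf, a protein of the outer kinetochore, the log2 fold change was 5.36 ± 0.94, with 2.80 in LMPP and 7.44 in BLP. In the condensation and separation list 10 of 14 were called (median 2.17), among them the condensin subunits Ncapd2 (2.49 ± 0.25) and Smc4 (1.31 ± 0.13) and the chromatin protein Hmgb2 (2.20 ± 0.19). Hmgb2 lay at 95.8 to 211 CPM in Mki67-high and 25.1 to 47.2 CPM in Mki67-low libraries, 2 ranges far apart. Of 6 partners of the anaphase-promoting complex, the ligase that ends mitosis, 4 were called: its activator Cdc20 (3.04 ± 0.32), its ubiquitin-conjugating enzyme Ube2c (6.11 ± 0.78), Cdca3 (5.15 ± 0.67) and its inhibitor Fbxo5 (3.13 ± 0.46).

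DNA replication genes differed by less. In the S phase list, 18 of 34 were called higher and none lower (median 1.16), and 30 were higher in all 4 mice. Pcna (chromosome 2, 132249162 to 132253314), the sliding clamp of the DNA polymerases, had 133 to 668 CPM (median 301) in Mki67-high and 98.5 to 171 CPM (median 131) in Mki67-low libraries. The ranges overlapped, yet each of the 12 pairs rose, and the log2 fold change was 1.20 ± 0.16 (adjusted p = 0.000718). Dut, which keeps uracil out of DNA, rose by 1.06 ± 0.11, the polymerase alpha subunit Pola1 by 1.57 ± 0.21 and DNA ligase 1 (Lig1) by 1.59 ± 0.23. These 4 genes were also read in every Mki67-low library, Dut at 128 to 314 CPM and Pola1 at 28.1 to 117 CPM.

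Genes of replication-dependent histones, which are made in S phase and whose transcripts carry no poly(A) tail, were called in 21 of the 42 that could be tested of 65 listed (median 2.77). Hist1h1b (chromosome 13, 21779883 to 21780625), a linker histone H1, lay at 26.0 to 196 CPM in Mki67-high and 0.176 to 4.87 CPM in Mki67-low libraries, with no overlap (5.67 ± 0.47, adjusted p = 1.72e-05). Hist1h2ab rose by 4.64 ± 0.51, Hist1h4d by 2.11 ± 0.21 and Hist1h2ai by 2.91 ± 0.36. Core histone genes are near-identical copies, so reads may be shared among them or lost as ambiguous, and single histone values are uncertain. The variant H2afx, which marks DNA breaks when phosphorylated, rose by 2.14 ± 0.24. In the list of DNA damage checkpoint and recombination 7 of 14 were called (median 2.06), among them the nuclease Exo1 (2.03 ± 0.45) and the chromatin ATPase Atad2 (1.62 ± 0.19).

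**Figure D4:**
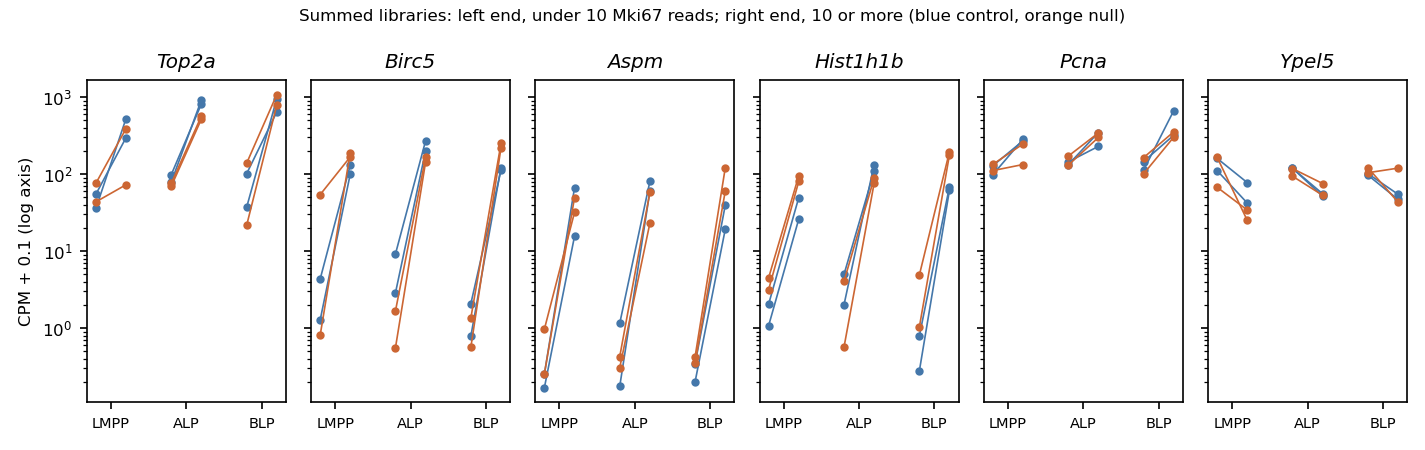
CPM + 0.1 on a log axis of 6 genes in the summed libraries, each line joining Mki67-low (left end) to Mki67-high cells (right end) of 1 mouse and population, blue for control and orange for null. Top2a, Birc5, Aspm, Hist1h1b and Pcna rise in all 12 pairs, Pcna by the least, and Ypel5 falls in 11 of 12.

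Regulators of the G1 to S step held fewer calls. Of 15 G1 cyclins, Cdks and E2F genes only Ccnd3, a D-type cyclin of lymphoid cells, was called (1.06 ± 0.20, adjusted p = 0.00869), and the list median was 0.83. E2f1, Cdk4 and Cdc25a did not pass, with log2 fold changes of 1.68 ± 0.52, 0.34 ± 0.11 and 1.32 ± 0.43 and adjusted p of 0.146, 0.147 and 0.169 (edgeR). Among 11 cell cycle transcription factors 3 were called. These were Foxm1, the activator of G2 genes (5.66 ± 0.77), and the repressors E2f7 (5.97 ± 1.29) and E2f8 (5.69 ± 1.25). Lin9, a MuvB subunit, did not pass (1.06 ± 0.33, adjusted p = 0.151). None of 13 Cdk inhibitors and quiescence genes was called (median -0.38). Lower in all 4 mice were 7 of the 13, against 13.4% of all genes tested. Nearest to the threshold was Btg2, an antiproliferative gene, at -0.94 ± 0.23 with an adjusted p of 0.0550. In other settings Btg2 was called lower in 3 of 13, and Pdcd4 and Foxo3 of the same list in 1 of 13 each. E2f1 was called higher in 3 of 13, and Cdc25a and Lin9 in 1 of 13 each. Some calls among the higher genes were not kept in every other setting tried. Exo1 lost its call in 8 of 13 settings, E2f7 in 6 of 12, E2f8 in 5 of 13, Kif4 in 4 of 12, and Ccnd3 and Cenpf in 3 of 13. Birc5, Ccna2, Ccnb2, Nek2, Aurkb, Cdca8, Ube2c, Pcna, Dut, Lig1, Atad2 and Pkmyt1 each lost theirs in 1 of 13. Ttk, Nuf2, Foxm1 and Hist1h2ai each lost theirs in 1 of 12.

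The 41 genes lower in Mki67-high cells were of other kinds, and none belonged to a list. Ypel5 (chromosome 17, 72836453 to 72851195), a member of the yippee family, fell from 115 ± 16.5 to 56.6 ± 13.5 CPM (SD, n = 4 mice), with a log2 fold change of -1.09 ± 0.20 (adjusted p = 0.00726). It was lower in 11 of 12 pairs, the exception being the BLPs of null mouse 18219 with 119.7 against 104.3 CPM. H2-Ob (chromosome 17, 34238903 to 34254414), the beta chain of a modulator of MHC class II peptide loading in B cells, fell from 743 ± 149.6 to 364 ± 97.8 CPM. It was lower in 12 of 12 pairs, and its log2 fold change was -1.03 ± 0.16 (adjusted p = 0.00217). The histone lysine demethylases Kdm7a and Kdm5b fell by 2.82 ± 0.55 and 1.31 ± 0.30, the GTPase Gimap8 by 2.94 ± 0.66, the actin regulator Evl by 1.43 ± 0.33 and the chemokine Ccl4 by 1.31 ± 0.29. Rnf122, a ubiquitin ligase, Plcb2, a phospholipase C, and Mtfr1l, a mitochondrial protein, changed by -1.32 ± 0.30, -0.98 ± 0.24 and -0.93 ± 0.20. Of these 10, Evl lost its call in 10 of 13 other settings, Plcb2 and Rnf122 in 8, Kdm5b and Ccl4 in 7, Mtfr1l in 6, Gimap8 in 5, Kdm7a and Ypel5 in 4 and H2-Ob in 1.

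Growth genes held 1 call. Of 17 genes of ribosome biogenesis and Myc, Nolc1, a nucleolar chaperone, was the 1 called (1.01 ± 0.24, adjusted p = 0.0435, lost in 10 of 13 other settings), and the list median was 0.07. Myc itself had a log2 fold change of -0.27 ± 0.14 (adjusted p = 0.451). No gene was called among 75 cytosolic ribosomal proteins (median -0.03), 13 genes of the mitochondrial genome (0.07) or 14 NuRD subunits (0.24). In other settings the NuRD gene Rbbp7 gained a call as higher in 2 of 13. Rps9 and Rps14 gained one as lower in 1 of 13 each. Of the NuRD genes 11 of 14 were positive, and of the mitochondrial genes 11 of 13, against 5587 of 13774 over all genes tested. In LMPP alone 9 of 14 and 3 of 13 were positive, against 5701 of 13774. Higher in all 4 mice were 3 of the 14 NuRD and 4 of the 13 mitochondrial genes, against 11.2% of all genes tested.

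Identity genes of the lymphoid progenitors also held no call in the edgeR fit over all populations. The early B lineage list had a median of -0.60 over 21 genes, 19 of them negative and 8 of the 21 lower in all 4 mice, against 13.4% of all genes tested. Ebf1, a factor that commits cells to the B lineage, was at 86.3 ± 52.9 CPM in Mki67-high and 144 ± 43.0 CPM in Mki67-low cells (mean and SD over 4 mice), and its log2 fold change was -0.91 ± 0.30 (adjusted p = 0.169, edgeR). Dntt, which adds bases at receptor gene joints, was at 4790 ± 865 and 5865 ± 577 CPM, lower in 4 of 4 mice (-0.32 ± 0.11, adjusted p = 0.186). Rag1, a subunit of the recombinase, had -1.07 ± 0.58 (adjusted p = 0.478), with 0.53 in LMPP and -2.01 in BLP. In other settings Ebf1 gained a call in 2 of 13, and Rag1 and Cd79a in 1 of 13 each. The stem gene Fgd5 gained one in 1 of 11, and all of these were lower in Mki67-high cells. Stem and multipotent genes had a median of -0.31 over 14 genes, and the list of sort gate and lymphoid priming genes -0.24 over 12. Markers of other cell types held no call either, with medians of -0.29 over 9 myeloid, -0.21 over 5 T lineage, -0.34 over 4 NK and innate lymphoid, 0.09 over 12 dendritic, 0.04 over 5 erythroid and megakaryocyte, -0.21 over 4 mature B and plasma cell and -0.06 over 2 macrophage and stroma genes. Their summed levels overlapped between the classes in every list. In all 4 mice 3 of the 9 myeloid genes were higher and 1 lower, and 3 of the 12 dendritic genes higher and 2 lower. Among all genes tested 11.2% were higher and 13.4% lower in all 4 mice. The macrophage and stroma list summed to 15.8 to 248 CPM in Mki67-high and 43.6 to 231 CPM in Mki67-low libraries, and 2 of its 12 genes had no read in any Mki67-high cell.

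Within populations fewer genes passed. In BLP 81 of 13774 (0.588%) were called, 71 higher (0.515%) and 10 lower, in ALP 16 (0.116%) and in LMPP 6 (0.0436%), all higher in the last 2 by edgeR. DESeq2 called 570 higher and 579 lower in BLP, 226 and 115 in ALP, and 264 and 695 in LMPP, where most of its calls were thus lower. All 6 LMPP calls, all 16 ALP calls and 66 of the 81 BLP calls were also called over all populations, and 5 genes were called in all 3. In LMPP the calls by the naming rule were Aspm (7.56), Nusap1 (4.74), Hist1h1b (4.64), Kif22 (4.22) and Pkmyt1 (3.49), the last an inhibitory kinase of Cdk1. Pkmyt1 had a log2 fold change of 0.99 in ALP (adjusted p = 0.659) and 2.92 in BLP. In BLP 21 of the 67 mitotic genes were called, against 7 in ALP and 5 in LMPP, although the medians of 4.68, 4.31 and 3.60 lay closer together. The lower genes named in BLP were Kdm6b, a histone demethylase (-2.71), Cep63, a centrosomal protein (-2.10), H2-Ob (-1.43) and Dars, a tRNA synthetase (-0.97), and Dars had 0.28 and 0.04 in LMPP and ALP. No gene passed the test of a difference between populations (0.0% of 13774, 522 at an unadjusted p under 0.05 by edgeR, 37 called by DESeq2), so the numbers of calls do not show that the populations differ. Without mouse 18217, 18218, 18219 or 18220 the BLP count was 1, 5, 0 and 7, the ALP count 0, 2, 0 and 4 and the LMPP count 0, 0, 0 and 3, and with the ALPs of mice 18219 and 18220 left out BLP had 47 and ALP had 1.

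Cell by cell, the Mki67-high class was mixed. At equal depth a Mki67-high cell had a read for a median of 30 of the 67 mitotic genes (2 to 66) and a Mki67-low cell for 6 (1 to 37). For the 34 S phase genes the medians were 28 (4 to 33) and 13 (3 to 33). Of the Mki67-high cells, 19 had no more mitotic genes than the median Mki67-low cell, and 6 Mki67-low cells had as many as the median Mki67-high cell or more. For S phase genes these numbers were 23 and 33, so the classes overlapped more in replication than in mitosis. Over the 185 cells, Spearman's rho between Mki67 CPM and the number of mitotic genes was 0.77, and with the number of S phase genes 0.14. Both are descriptions over cells of 12 libraries that share a depth and a mouse, and Mki67 reads also chose these cells. By population, the median number of mitotic genes was 21.5 in LMPP, 30.5 in ALP and 34.0 in BLP among Mki67-high cells, and 6, 8 and 6 among Mki67-low cells.

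**Figure D5:**
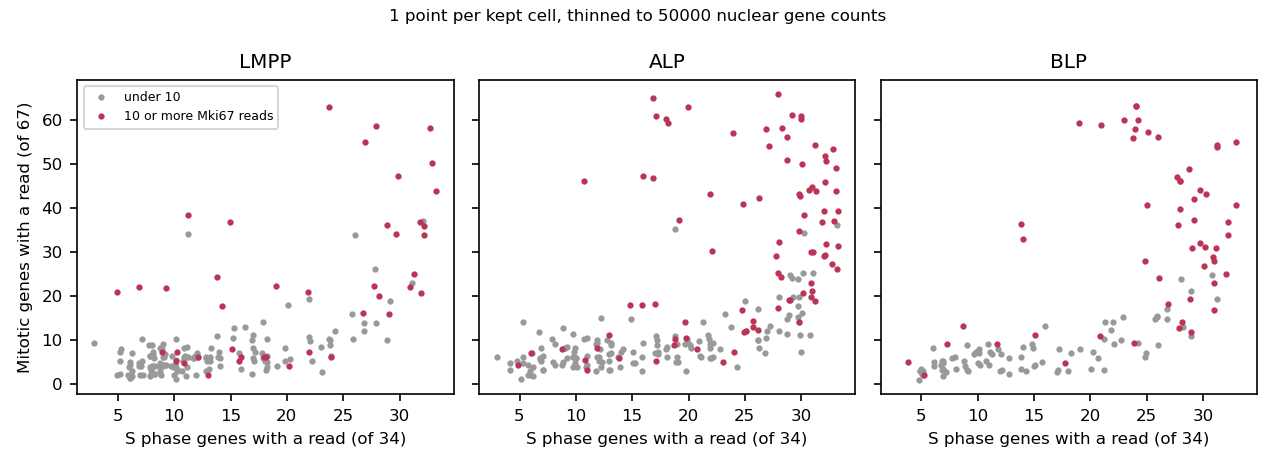
Number of S phase genes (of 34, horizontal) and mitotic genes (of 67, vertical) with a read in each kept cell after thinning to 50000 nuclear gene counts, by population, with Mki67-high cells in red and Mki67-low cells in grey. Mki67-low cells run from 1 to 37 mitotic genes with a median of 6, and Mki67-high cells from 2 to 66 with a median of 30.

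Aspm and Hist1h1b, chosen for this split after their values were seen as a spindle gene and a histone gene, divided the Mki67-high cells further. At 10 or more reads, 44 cells had both, 14 had Aspm only, 37 had Hist1h1b only and 90 had neither. Aspm reached that count in 31.4% of Mki67-high and 0.532% of Mki67-low cells, and Hist1h1b in 43.8% and 3.99%. Either gene therefore marks a minority of the class, whereas Pcna was found in 97.3% and 82.2%.

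Between genotypes, Mki67-high cells were compared in sums of null against control mice. Levels in these sums were scaled without the Mki67-low libraries. Mbd3 was at 24.3 and 110.4 CPM in control LMPPs (mice 18218 and 18220) and 0.173 and 0 in null LMPPs (mice 18217 and 18219). In ALPs it was at 115 and 162 CPM against 5.62 and 0.246, and in BLPs at 72.2 and 299 CPM against 0.283 and 0.53. The genotypes did not overlap in any population. The log2 fold changes, -9.21 ± 1.91, -5.55 ± 1.57 and -8.82 ± 1.83, did not pass the edgeR test (adjusted p = 0.759, 1 and 0.732), and DESeq2 called Mbd3 in each population. Of the 281 Mbd3 reads in null ALPs of mouse 18217, 189 came from 1 cell.

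In Mki67-high BLPs 1 of 16943 genes passed (0.0059%, with 945 at an unadjusted p under 0.05 by edgeR, and 431 called by DESeq2). The count was 0 without any 1 of the 4 mice, and also 0 with the ALPs of mice 18219 and 18220 left out, with a threshold of 50 Mki67 reads and with sums of thinned cells.

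No gene passed in Mki67-high LMPPs (0.0% of 16943, 959 at an unadjusted p under 0.05, 544 by DESeq2), in ALPs (0.0%, 324 and 79) or in 1 sum per mouse (0.0% of 17452, 897 and 252). The difference between Mki67-high and Mki67-low cells also held no gene that differed between genotypes (0.0% of 13774, 424 unadjusted by edgeR, 86 by DESeq2). Top2a in Mki67-high ALPs was at 810 and 880.1 CPM in controls and 558 and 501 CPM in null mice (-0.67 ± 0.63, adjusted p = 1, edgeR), without overlap. Its log2 fold change was -0.83 in LMPPs and 0.21 in BLPs, with overlap in both. Birc5 in BLPs was at 120 and 109 CPM in controls and 244 and 213 CPM in null mice (0.99 ± 0.31, adjusted p = 0.732), also without overlap. In ALPs Birc5 went the other way, at 269 and 193 CPM in controls and 163 and 139.8 CPM in null mice (-0.61 ± 0.31, adjusted p = 1), and in LMPPs it was at 0.62 ± 0.31 (adjusted p = 0.759), neither with overlap. None of these adjusted p passed the threshold, which does not show that the genotypes are alike.

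The mitotic genes leaned in opposite directions in ALP and BLP. In null against control Mki67-high cells, 7 of the 67 were higher and 60 lower in ALP (median log2 fold change -0.66), 55 were higher and 12 lower in BLP (0.87), and 37 were higher and 30 lower in LMPP (0.08), while the median of all genes was at or near 0 in each. Libraries of the genotypes did not overlap for 34 of 67 in ALP (50.7%, 33 of them lower in null), 38 in BLP (56.7%, 36 higher) and 15 in LMPP (22.4%). Over all genes tested the share without overlap was 31.4%, 31.2% and 30.1%. The S phase list had medians of 0.19 in ALP, -0.61 in BLP and -0.37 in LMPP. Its libraries did not overlap for 50.0% of 34 genes in BLP, 12 of them lower in null and 5 higher. In ALP and LMPP this share was 11.8% and 26.5%, both below that of all genes tested. The replication-dependent histones had the same sign as the mitotic genes, with 51 of 55 higher in BLP (median 1.37), 42 of 55 lower in ALP (-0.45) and 40 higher in LMPP (0.76). In the same comparison the early B lineage list had 18 of 23 genes higher in ALP (1.32), 20 higher in BLP (1.01) and 8 higher in LMPP (-0.57). Ebf1 in Mki67-high ALPs was at 6.17 and 12.3 CPM in controls and 110.9 and 90.02 CPM in null mice, without overlap (adjusted p = 1, edgeR). The part of these genes in the lean of the mitotic genes was not tested. In ALPs and BLPs Mki67 leaned the same way, without overlap, and did not pass the edgeR test. Its reads chose these cells, so neither its level nor that test is separate evidence on the lean. Mki67 was at 471 and 615 CPM in control and 405 and 135 CPM in null ALPs. In BLPs it was at 550 and 360 against 737 and 753 CPM, and in LMPPs the genotypes overlapped. A fixed Mki67 read count is a higher CPM in a shallower cell, and null Mki67-low cells were shallower. Whether the choice by reads shaped the lean was not tested. Summed per mouse over the populations, the mitotic median was -0.01, with 31 higher and 36 lower. The mitotic genes are read from the same few cells, 11 to 33 per ALP library and 8 to 17 per BLP library, and 1 cell gave 43.6% of the counts of the Mki67-high BLPs of control mouse 18220. With 2 mice per genotype the lean was not tested.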

How the data were processed

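Single cells had been sorted by flow cytometry, 1 per well, from femurs and tibiae, and their RNA amplified by a full-length plate protocol, as the labels' protocols state. Raw read counts make up the deposited table, which holds 1 value per gene and cell, including 92 ERCC spike-ins. GSNAP (2015-09-29) and HTSeq (0.5.3p3) and build mm10 are named in the submitters' processing notes. No source used here gives the annotation or a strand setting, and reads of overlapping or antisense genes therefore cannot be told apart. HTSeq's rows that name no gene held 33.0% (unaligned), 11.6% (no feature) and 6.08% (ambiguous) of all counts and stayed out of every total.

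Cells were kept with at least 50000 nuclear gene counts, 1000 genes, at most 20% mitochondrial and 50% spike-in counts. Kept cells were split at 10 Mki67 reads and summed by mouse and population (at least 3 cells). No doublet caller was run. Summed Mki67-high libraries held 12646821 to 62421492 gene counts and Mki67-low libraries 21503933 to 113691151, and the deepest cell gave 6.32% to 43.6% of a Mki67-high library. Sums were tested with edgeR 4.0.16 in R 4.3.3 (TMM, filterByExpr, quasi-likelihood F test, Benjamini-Hochberg 0.05), with each mouse and population as a block for the class difference and without a block between genotypes. The block follows from the design, since both classes come from the same mouse and population. Their deviations correlated only weakly, by 0.0364 to 0.118. Mki67 was left out of the calls. Standard errors are the log2 fold change divided by the square root of F. Cells of a mouse were not treated as replicates, and p-values of the class fit measure the spread over 12 mouse-by-population pairs (11 residual degrees of freedom), which is not the spread over 4 mice. The script was tested on simulated counts. DESeq2 1.42.0, other scalings, filters, thresholds and left-out mice were the alternatives.

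Besides Mki67, Top2a, Birc5 and Mbd3, the text names, per fit, up to 10 called genes per direction with the largest change, a mean of at least 20 CPM and 1 direction in every mouse (for genotypes, no overlap), and up to 4 genes per list with the smallest p, leaving out predicted genes, pseudogenes, receptor segments and sex-linked RNAs. Genes of lists for other cell types and the sort gate are given as counts and medians, and some genes that the rule names are not reported here. The members and gene lists were chosen with earlier results of these data known. Gene positions come from GENCODE on the mm10 (GRCm38) build and promoters from RefSeq.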

Additional observations from a re-analysis of the deposited data

Results flagged for a closer look

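Hist1h2ab, a core histone gene, had 1 mouse apart from the others in its difference between Mki67-high and Mki67-low cells. On the log2(CPM + 1) scale the difference, averaged over the populations, was 3.28 in control mouse 18218 and 3.91 to 3.96 in the other 3 mice. The gap is large against the whole range because those 3 lay close together, and all 4 mice moved the same way. Of 96 results examined this was 1 with an outlying mouse, and chance alone marks about 5% of groups.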

How the results depend on the processing

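The 322 genes called between Mki67-high and Mki67-low cells became 1444 with DESeq2, 58 with 1 pair of sums per mouse (the mouse as the replicate), 206 without the ALP libraries of mice 18219 and 18220 (chosen after seeing the data) and 143 to 188 without a mouse. The 6, 16 and 81 calls in LMPP, ALP and BLP became 959, 341 and 1149 with DESeq2, 28, 62 and 138 with sums of thinned cells, and 0 to 3, 0 to 4 and 0 to 7 without a mouse. ALP had 1 and BLP 47 without those ALP libraries, and BLP 44 with no filter on low counts. Without the replicate block of mouse and population, the counts were 330 over all populations and 9, 37 and 117 in LMPP, ALP and BLP, so the pairing moved only the ALP count by over 1.5 times. DESeq2 called 37 genes for a difference between populations and 86 between genotypes. Between genotypes in Mki67-high cells, DESeq2 called 544, 79, 431 and 252 genes in LMPP, ALP, BLP and per mouse, and edgeR with no filter 42, 9, 58 and 5. The 1 BLP gene became 0 with 50 Mki67 reads, with thinned sums, without those ALP libraries and without any mouse (0 to 0). The null minus control share turned to -2.32, 5.73 and -9.96 points in LMPP, ALP and BLP with 1 or more reads. In ALP it also turned to 0.412 at equal depth, to 0.691 expected over draws (chosen after seeing the data), and ran from -10.6 to 6.48 without a mouse. Top2a in BLP, null minus control, turned to -0.022 on the log2 scale at equal depth, to -0.23 with 50 reads and ran from -0.031 to 0.53 without a mouse. Per mouse, Top2a turned to 0.0075 with thinned sums, and Birc5 to -0.0197 with 50 reads and ran from -0.19 to 0.55 without a mouse. The cause of these changes was not tested. Over all results and alternatives, 1352 values stayed the same, 144 lost and 30 gained a call, 46 moved and 14 turned direction. For a gene, the same means direction and side of the threshold. For a number of calls it means within 1.5 times, and numbers outside that moved. For shares, RNA content and genes per cell it means direction alone. Aspm, Top2a and Hist1h1b kept their call between the classes in all 13 alternatives. Only 2 mice per genotype and 6 to 33 cells per Mki67-high library limit the comparison of genotypes.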
